A study of Homo sapiens with 16 samples.

Results

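The dual-specificity MAP kinase phosphatases are enzymes that remove the phosphates from both the threonine and the tyrosine of the MAP kinase activation loop and so switch ERK, JNK or p38 off. Their genes DUSP1, DUSP2, DUSP4, DUSP5, DUSP6, DUSP7, DUSP8, DUSP10, DUSP14 and DUSP16 were taken by symbol from the deposited expression tables, and all 10 were found among the 28502 symbols listed. The cells were HCT116, an established human colorectal carcinoma line, transfected with a small interfering RNA (siRNA) preparation labelled siEZH1, siUXT or NC and given tumour necrosis factor (TNF) or phosphate-buffered saline (PBS). EZH1 encodes a histone H3 lysine 27 methyltransferase, UXT encodes a prefoldin-like protein, and the meaning of the letters NC, the TNF dose and the time of treatment are not stated in the labels. Each of the 6 conditions (siEZH1 TNF, siEZH1 PBS, siUXT TNF, siUXT PBS, NC TNF and NC PBS) had 1 library of poly(A) RNA, so no condition had a replicate. The 10 chromatin samples of the series were not analysed here.

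Several of these phosphatases are themselves products of the pathways they inhibit. DUSP1, DUSP2, DUSP4 and DUSP5 are nuclear enzymes made from inducible genes, DUSP6 and DUSP7 are cytoplasmic and selective for ERK, and DUSP8, DUSP10 and DUSP16 act on JNK and p38. DUSP14 is a small atypical member that lacks the MAP kinase binding domain of the others. TNF is known to activate JNK, p38 and ERK beside NF-kB, and DUSP6 is a well-known readout of ERK activity.

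Expression was deposited as FPKM, a fragment count scaled by transcript length and library size, so that levels of different genes can be set side by side. Median-of-ratios size factors of the 6 libraries were 1.00 to 1.05, and the labels state no read depth. From steps among low values, siEZH1 TNF and NC TNF were sequenced to 0.720 and 0.719 of the NC PBS depth; siEZH1 PBS and both siUXT libraries came to 0.951 to 1.02. UXT was at 24.6 and 27.7 FPKM in siUXT TNF and siUXT PBS, against 59.6 and 62.2 in NC TNF and NC PBS; EZH1 was at 4.14 and 4.05 FPKM in siEZH1 TNF and siEZH1 PBS, against 5.12 and 5.45. Limma called neither knockdown over both treatments (Benjamini-Hochberg adjusted p = 0.64 for EZH1 in siEZH1 and 0.69 for UXT in siUXT). NFKBIA and TNFAIP3, feedback inhibitors of NF-kB, rose under TNF with mean log2 differences of 3.54 and 4.07. The epithelial markers EPCAM, KRT8, KRT18 and CDH1 were all present, EPCAM at 58.7 to 153.8 FPKM, while the leukocyte genes PTPRC and CD14 were listed at 0 in all 6 libraries, the endothelial gene PECAM1 reached 0.038 FPKM and the fibroblast collagen gene COL1A1 lay at 5.04 to 8.26 FPKM. The siUXT PBS library stood apart: 20.5% of the 11845 loci tested were at least 1.5-fold from NC under PBS on the log2(FPKM + 1) scale, against 6.18% for siUXT under TNF, and EPCAM was lowest there.

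The levels of the 10 genes spanned nearly the whole expressed range. DUSP6 was the most abundant, at a mean of 93.9 FPKM over the 6 libraries (82.9 to 107.3), which placed it at percentile 93.5 of the tested loci. DUSP5 followed at 48.4 FPKM (25.3 to 73.8), DUSP14 at 24.8 (16.6 to 32.1) and DUSP4 at 17.3 (14.4 to 20.4). DUSP6 lay above DUSP5 without overlap, but DUSP5 and DUSP14 overlapped, and so did DUSP14 and DUSP4. Below a gap came DUSP7 at 9.85 FPKM (7.47 to 12.7), DUSP2 at 7.23 (5.13 to 9.20), DUSP1 at 6.34 (4.83 to 8.65), DUSP16 at 3.95 (2.99 to 5.53), DUSP8 at 2.85 (1.08 to 5.13) and DUSP10 at 1.39 (0.556 to 2.12), where each gene's range overlapped that of the next. All 10 passed the requirement of a mean of at least 1 FPKM, DUSP10 narrowly.

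**Figure D1:**
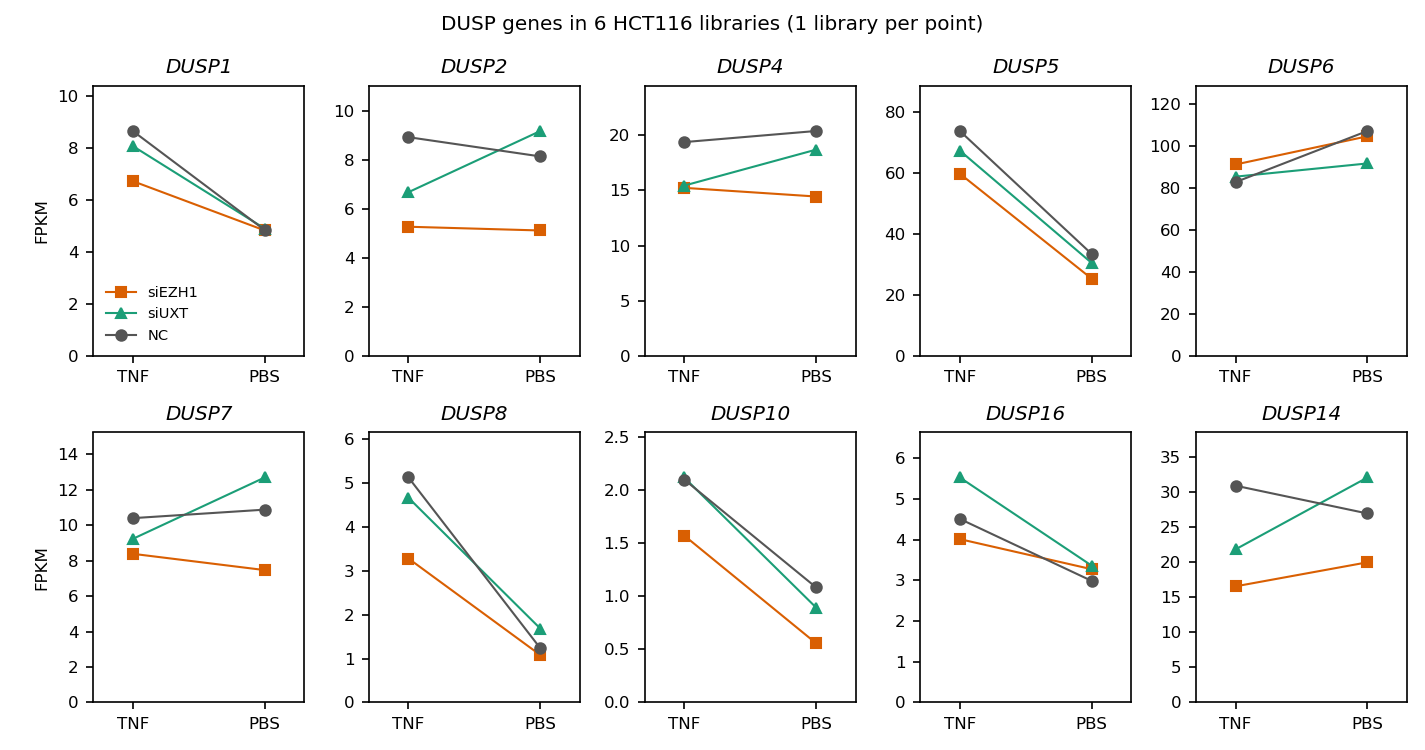
FPKM of each of the 10 genes (vertical axis, linear, from 0) in the TNF and the PBS library of each transfection, with 1 point per library and a line joining the 2 libraries of a transfection. DUSP1, DUSP5, DUSP8, DUSP10 and DUSP16 were higher under TNF on all 3 lines, DUSP6 was lower on all 3, and DUSP2, DUSP4, DUSP7 and DUSP14 had lines in both directions.

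Summed over the 10 genes, FPKM was 212 in siEZH1 TNF, 227 in siUXT TNF and 247 in NC TNF, against 187, 206 and 217 in the PBS libraries of siEZH1, siUXT and NC, or 1.10 to 1.14 times as much under TNF. What differed more was the composition. The ERK-selective cytoplasmic pair of DUSP6 and DUSP7 made up 47.0%, 41.8% and 37.8% of the sum under TNF in siEZH1, siUXT and NC, against 60.1%, 50.8% and 54.4% under PBS. The inducible nuclear genes made up 41.0%, 43.1% and 44.9% under TNF in the same order of transfections, against 26.6%, 30.7% and 30.7% under PBS, and DUSP5 alone made up 28.2%, 29.8% and 29.9% of the sum under TNF, against 13.6%, 14.8% and 15.4% under PBS. The DUSP1 share was also larger under TNF in each transfection, but those of DUSP2 and DUSP4 were smaller. A smaller share need not be a lower FPKM, since the sum itself was larger under TNF. DUSP4 made up 7.17%, 6.81% and 7.85% under TNF in siEZH1, siUXT and NC, against 7.73%, 9.08% and 9.38% under PBS. The genes of the JNK and p38 phosphatases stayed a small part, at 4.18% to 5.44% under TNF against 2.44% to 2.88% under PBS. These shares are descriptions with no test.

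**Figure D2:**
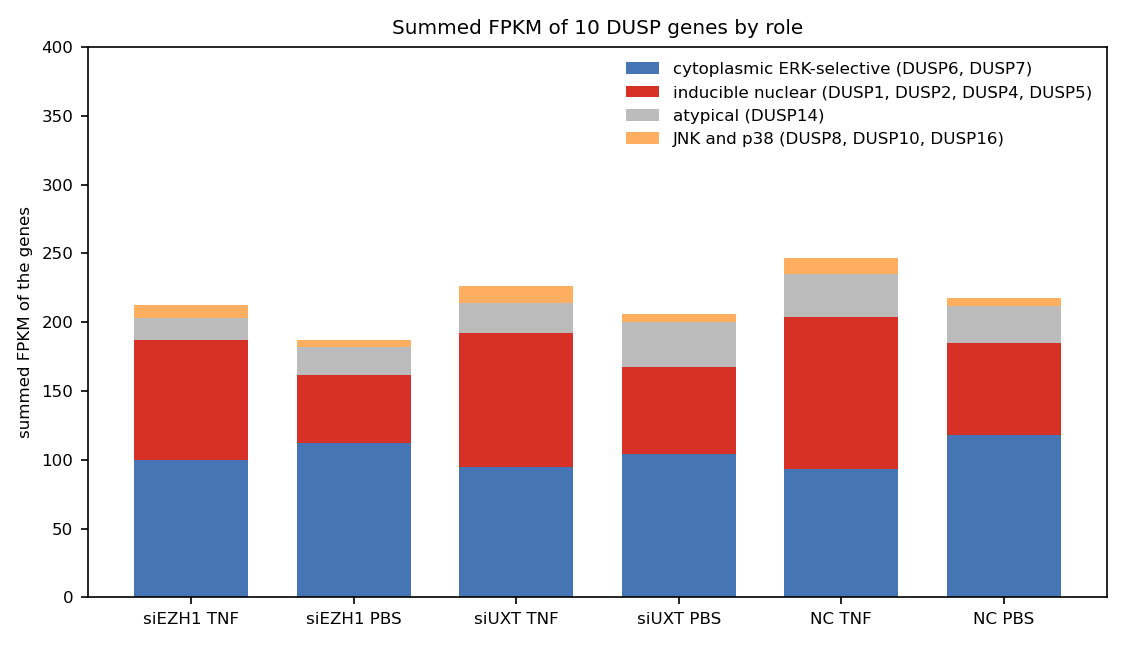
Stacked bars of the summed FPKM (vertical axis, from 0) of the 10 genes in each library, coloured by role. The TNF bar of each transfection is taller than its PBS bar. DUSP1, DUSP2, DUSP4 and DUSP5 together make up a larger part of it, and DUSP6 and DUSP7 together a smaller part. Taken singly, DUSP1 and DUSP5 had larger shares under TNF, and DUSP2 and DUSP4 smaller ones.

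TNF raised DUSP5 in all 3 transfections, and it was the 1 gene of the 10 that passed the test over all loci. DUSP8, DUSP10, DUSP1 and DUSP16 were also higher in each TNF library than in any PBS library but did not pass. DUSP6 lay lower in each TNF library than in any PBS library, by less, and did not pass either. The remaining genes, DUSP2, DUSP4, DUSP7 and DUSP14, did not move one way. The test was limma on log2(FPKM + 1) with terms for transfection and treatment over the 6 libraries and Benjamini-Hochberg adjustment over the 11845 loci whose mean reached 1 FPKM. It called 0.405% of loci higher under TNF and 0.00844% lower, against 1 and 0 of the 10 genes. At an unadjusted p under 0.05 limma had 5 of the 10 genes, and 469 loci in all. A gap between all TNF and all PBS libraries was found with TNF higher for 5 of the 10 genes and 3.47% of all loci, and with TNF lower for 1 of the 10 and 3.04% of all loci.

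DUSP5, the nuclear phosphatase that binds and inactivates ERK, had 59.8, 67.4 and 73.8 FPKM under TNF in siEZH1, siUXT and NC cells, against 25.3, 30.5 and 33.4 FPKM under PBS. The lowest TNF library was thus far above the highest PBS library, and the ratios within a transfection were 2.36, 2.21 and 2.21. On the log2(FPKM + 1) scale the difference was 1.15 ± 0.05 (SD, n = 3 transfections), the least variable of the 10 genes, with a limma Benjamini-Hochberg adjusted p of 0.028. In the siUXT pair, whose relative depths were 0.958 under TNF and 0.951 under PBS, the difference was 1.12. In bulk RNA, more cells expressing a gene and more RNA per cell cannot be told apart. The call depended on the libraries used: without the siEZH1 PBS or the siEZH1 TNF library the estimate was 1.12 and limma's Benjamini-Hochberg adjusted p was 0.058 and 0.064. With only the NC and siUXT libraries it was 0.053, and with no filter on low values 0.071 (limma, Benjamini-Hochberg). DUSP5P1, a pseudogene derived from DUSP5, may share reads with it. DUSP5P1 was at 3.43, 3.12 and 2.31 FPKM under TNF and 5.54, 3.15 and 4.21 FPKM under PBS in siEZH1, siUXT and NC. The sharing of reads was not tested.

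DUSP1, the classical stress-inducible phosphatase of p38 and JNK, was at 6.72, 8.08 and 8.65 FPKM under TNF and at 4.83, 4.90 and 4.84 FPKM under PBS in siEZH1, siUXT and NC cells. Its PBS values were nearly equal, and all 3 TNF values lay above them. The log2 difference was 0.58 ± 0.16 (SD, n = 3 transfections; limma, Benjamini-Hochberg adjusted p = 0.60). The values of DUSP1 are shared with AK316321, an mRNA accession listed as a symbol of its own, so both stand for 1 locus.

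DUSP2 and DUSP4, the other nuclear members, differed little. DUSP2 was at 5.28, 6.70 and 8.95 FPKM under TNF against 5.13, 9.20 and 8.16 FPKM under PBS in siEZH1, siUXT and NC. DUSP4 was at 15.2, 15.4 and 19.4 FPKM under TNF against 14.4, 18.7 and 20.4 FPKM under PBS. Both sets of groups overlapped, with mean log2 differences of -0.08 ± 0.28 for DUSP2 and -0.09 ± 0.17 for DUSP4 (SD, n = 3 transfections), smaller than the spread between transfections.

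DUSP6, the cytoplasmic ERK phosphatase, was at 91.3, 85.5 and 82.9 FPKM under TNF against 104.8, 91.8 and 107.3 FPKM under PBS in siEZH1, siUXT and NC cells. The groups did not overlap, although the siUXT PBS value was barely above that of siEZH1 TNF. The log2 difference was -0.22 ± 0.14 (SD, n = 3 transfections; limma, Benjamini-Hochberg adjusted p = 1.00). The annotated span of the protein-coding gene POC1B-DUSP6 overlaps that of DUSP6, and the part of its reads in the DUSP6 values was not tested. DUSP7, a close relative of DUSP6, was at 8.39, 9.23 and 10.4 FPKM under TNF against 7.47, 12.7 and 10.9 FPKM under PBS. It was higher under TNF in siEZH1 and lower in siUXT and NC, so the groups overlapped.

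The genes of the JNK and p38 phosphatases were all higher under TNF in each transfection. DUSP8 had 3.28, 4.67 and 5.13 FPKM under TNF in siEZH1, siUXT and NC cells, against 1.08, 1.68 and 1.23 FPKM under PBS. Its ratios of 3.04, 2.77 and 4.16 were the largest of the 10 genes in every transfection, and its log2 difference was 1.19 ± 0.23 (SD, n = 3 transfections). Limma's Benjamini-Hochberg adjusted p was 0.076 over all libraries. Without either NC library the log2 difference was 1.06, without either siEZH1 library 1.27 and without either siUXT library 1.25. The 2 fits of each transfection share an estimate, since a library left alone takes its own term. Whether DUSP8 was called depended on the library left out. All of these fits also called more loci higher under TNF than the fit over all libraries, and have 1 residual degree of freedom. KRTAP5-AS1, whose annotated span overlaps DUSP8, was at 0 to 0.117 FPKM, and without stated strand handling reads of the 2 genes cannot be told apart.

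DUSP10, which acts on JNK and p38, had 1.57, 2.12 and 2.10 FPKM under TNF against 0.556, 0.893 and 1.08 FPKM under PBS in siEZH1, siUXT and NC. The log2 difference of 0.67 ± 0.09 (SD, n = 3 transfections) understates the ratios of 2.82, 2.37 and 1.94, since the added 1 weighs heavily at this level; limma's Benjamini-Hochberg adjusted p was 0.41. DUSP16, a JNK phosphatase, had 4.01, 5.53 and 4.51 FPKM under TNF against 3.27, 3.36 and 2.99 FPKM under PBS, a log2 difference of 0.43 ± 0.18 (SD, n = 3 transfections; limma, Benjamini-Hochberg adjusted p = 1.00). On the log2(FPKM + 1) scale, DUSP5 and DUSP8 were the 2 of the 10 genes at least 1.5-fold higher in all 3 transfections, against 0.979% of all loci; DUSP10, above 1.5-fold by FPKM ratio in each, fell just short in NC on that scale, at a log2 difference of 0.57. On the same scale 0 of the 10 were at least 1.5-fold lower in all 3, against 0.0422% of loci.

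DUSP14, the atypical member, had no common direction under TNF. It was at 16.6, 21.9 and 31.0 FPKM under TNF against 20.02, 32.1 and 26.99 FPKM under PBS in siEZH1, siUXT and NC, so it was lower under TNF in both knockdowns and higher in NC. Its SD over the 3 transfections, 0.37, was the largest of the 10 genes.

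**Figure D3:**
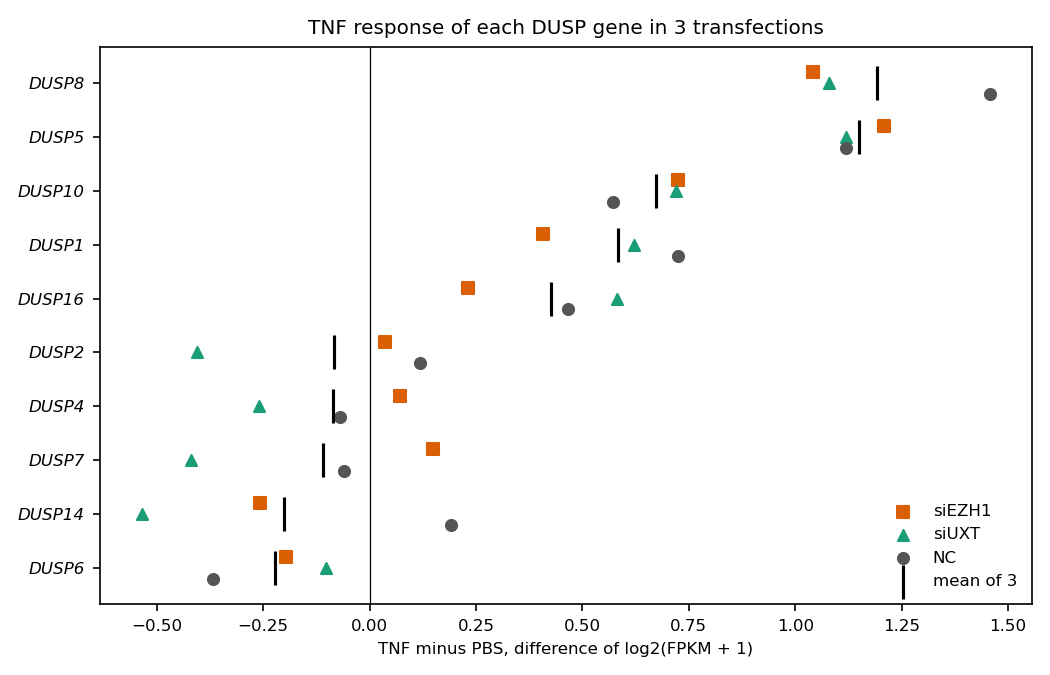
TNF minus PBS difference of log2(FPKM + 1) (horizontal axis) for each of the 10 genes, with 1 symbol per transfection and a bar at the mean of 3, ordered by the mean. DUSP8, DUSP5, DUSP10, DUSP1 and DUSP16 lie to the right of 0 in every transfection, with means between 0.43 and 1.19; the symbols of DUSP14 run from -0.54 (siUXT) to 0.19 (NC).

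Upstream sequences were read for the genes with a RefSeq promoter window on build GRCh38.p14, cut to the 250 bases before the annotated start. Windows of 8 of the 10 genes were used, 9 windows in all with the pair of DUSP10; DUSP4 and DUSP5 were not used here. They were searched on both strands for the cyclic AMP response element TGACGTCA, the palindrome that CREB and ATF family factors bind, for the AP-1 element TGANTCA, and for the NF-kB consensus; a cyclic AMP response element does not contain the AP-1 letters. The cyclic AMP response element occurred in DUSP1 and DUSP8 and in no other member window, and neither the AP-1 element nor the NF-kB consensus occurred in any of the 9 windows. Of all 35116 windows, 1.65% held the cyclic AMP response element, 6.57% the AP-1 element and 5.21% the NF-kB consensus. DUSP1 and DUSP8 are shown because they hold the element, and DUSP6 as the most abundant member and one without it; capitals mark the element. The DUSP1 window lies at chr5:172771196-172771445 on the minus strand, the DUSP8 window at chr11:1572272-1572521 on the minus strand and the DUSP6 window at chr12:89352502-89352751 on the minus strand, and each is written 5′ to 3′ along the gene.
DUSP1: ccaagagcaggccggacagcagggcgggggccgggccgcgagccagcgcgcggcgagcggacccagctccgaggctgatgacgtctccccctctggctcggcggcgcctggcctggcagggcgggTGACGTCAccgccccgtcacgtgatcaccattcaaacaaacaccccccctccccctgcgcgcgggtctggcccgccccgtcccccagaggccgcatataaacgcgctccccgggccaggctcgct
DUSP8: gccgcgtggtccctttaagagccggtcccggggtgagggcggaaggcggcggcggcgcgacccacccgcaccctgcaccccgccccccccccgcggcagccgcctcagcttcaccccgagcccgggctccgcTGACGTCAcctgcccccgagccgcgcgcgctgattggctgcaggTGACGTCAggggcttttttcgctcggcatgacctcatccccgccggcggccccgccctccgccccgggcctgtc
DUSP6: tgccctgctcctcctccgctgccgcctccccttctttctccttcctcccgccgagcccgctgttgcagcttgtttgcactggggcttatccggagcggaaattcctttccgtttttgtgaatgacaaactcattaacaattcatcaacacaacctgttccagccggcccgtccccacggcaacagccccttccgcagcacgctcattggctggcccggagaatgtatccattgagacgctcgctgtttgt

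In DUSP1 the element starts at position -125 relative to the annotated start, and in DUSP8 there are 2 copies, starting at -118 and -74. The windows of DUSP10 and DUSP16, whose genes were also higher in all TNF libraries, hold none of the 3 motifs. A match of letters is a description and no evidence that a factor binds, and other distances were not searched. By GC content, of the genes higher in all TNF libraries, DUSP1, DUSP8 and DUSP16 had 74.4%, 76.8% and 74.8% and the DUSP10 windows 56.4% and 55.2%; DUSP6 had 57.2%, and DUSP2, DUSP7 and DUSP14, which overlapped, 74.0%, 78.4% and 82.8%, against a median of 58.0% over all windows.

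Under siEZH1 most of the 10 genes were lower than in NC, but limma called 0 of them over all 6 libraries. On the log2(FPKM + 1) scale, averaged over both treatments, the largest differences were in DUSP14 and DUSP2. DUSP14 was at 16.6 FPKM in siEZH1 TNF against 31.0 in NC TNF, and at 20.02 in siEZH1 PBS against 26.99 in NC PBS, which is 0.536 and 0.742 of NC. DUSP2 was at 5.28 FPKM in siEZH1 TNF against 8.95 in NC TNF, and at 5.13 in siEZH1 PBS against 8.16 in NC PBS, or 0.591 and 0.629 of NC. Also lower under both treatments were DUSP4 (0.786 of NC under TNF and 0.709 under PBS), DUSP7 (0.806 and 0.686) and DUSP5 (0.810 and 0.757).

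DUSP10 was at 0.749 of NC under TNF and 0.514 under PBS, the lowest single ratio of the 10 genes, from PBS levels of 0.556 FPKM under siEZH1 and 1.08 FPKM under NC. DUSP8 was at 0.640 of NC under TNF and 0.875 under PBS, and DUSP1 at 0.777 and 0.997. DUSP6 stood at 1.10 and 0.976 and DUSP16 at 0.890 and 1.10, so these 2 had no common direction. In all, 8 of the 10 genes were below NC under both treatments, against 37.7% of loci, and the median log2 difference of the 10 was -0.31 under TNF and -0.40 under PBS, against 0.02 and 0.00 over all tested loci. None was at least 1.5-fold lower under both treatments on the log2(FPKM + 1) scale, a threshold that 2.38% of loci passed. DUSP2, more than 1.5-fold lower by FPKM ratio under both, fell just short under PBS on that scale, at a log2 difference of -0.579.

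In limma's fit over all libraries DUSP14 had a log2 difference of -0.64 with an SE of 0.22, and DUSP2 of -0.62 with an SE of 0.22, both with a Benjamini-Hochberg adjusted p of 0.60. At an unadjusted p under 0.05 limma had these 2 of the 10 genes and 972 loci, and after adjustment 0.0169% of loci passed in either direction. The count depended on the siUXT libraries, from which the fit takes part of its spread. Without siUXT PBS limma called 5 of the 10 genes lower at a Benjamini-Hochberg adjusted p under 0.05, against 15.2% of loci, and without siUXT TNF 5 of the 10, against 14.9%. With only the NC and siEZH1 libraries limma called 5 of the 10, against 15.9%. They were DUSP2, DUSP4, DUSP5, DUSP7 and DUSP14 in all 3 fits, each of which has 1 residual degree of freedom. These 3 fits are not separate evidence. A siUXT library left alone takes its own term, so all 3 take the siEZH1 difference from the same NC and siEZH1 libraries. Their estimates were equal, at -0.64 for DUSP14 and -0.62 for DUSP2. EZH1 itself was at 0.809 and 0.742 of NC under TNF and PBS.

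Gene span moved with every difference used here across the genome. For siEZH1 minus NC, in the shortest quartile of the 11416 tested loci with a RefSeq span (up to 12020 bases) the median log2 difference was -0.15 under TNF and -0.14 under PBS, and in the longest quartile (from 70927 bases) 0.14 and 0.08. DUSP1, DUSP2, DUSP6 and DUSP7 lie in the shortest quartile, DUSP4, DUSP5, DUSP8 and DUSP14 in the second, DUSP10 in the third and DUSP16 in the longest. Within the shortest quartile DUSP2 and DUSP6 differed widely under siEZH1. For siUXT minus NC the medians were -0.08 under TNF and 0.17 under PBS in the shortest quartile, against 0.07 and -0.10 in the longest. For TNF minus PBS they were 0.06 in siEZH1, -0.19 in siUXT and 0.07 in NC in the shortest quartile, against -0.03, 0.11 and -0.09 in the longest. The part of gene span in the differences of the 10 genes was not tested.

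**Figure D4:**
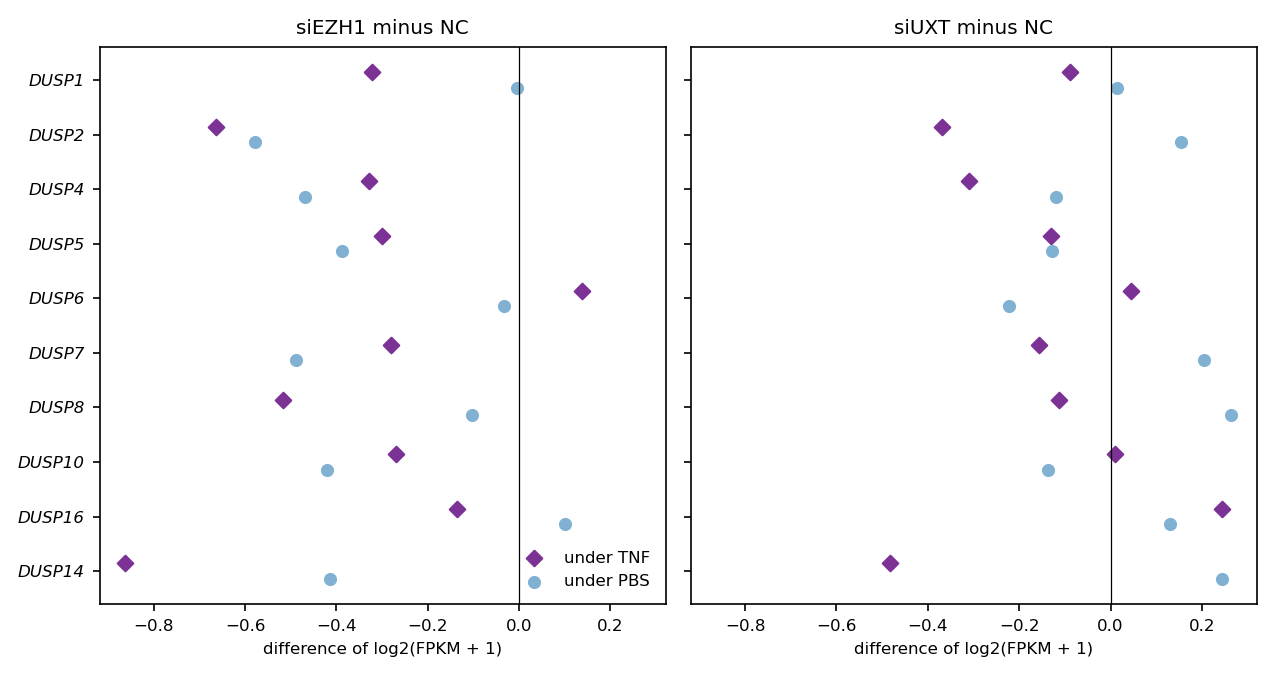
Difference of log2(FPKM + 1) from NC (horizontal axis) for each of the 10 genes under siEZH1 (left panel) and siUXT (right panel), with 1 symbol under TNF and 1 under PBS. Under siEZH1, 8 genes have both symbols left of 0, with DUSP14 the lowest at -0.86 under TNF; under siUXT, 5 genes have the PBS symbol right of 0 and the TNF symbol left of it. Both panels share the 2 NC libraries.

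Under siUXT the 10 genes lay close to NC. DUSP14 differed most under TNF, at 21.9 FPKM in siUXT against 31.0 in NC, but under PBS it was at 32.1 in siUXT against 26.99 in NC. DUSP8 differed most under PBS, at 1.68 FPKM in siUXT against 1.23 in NC, and under TNF it was at 4.67 in siUXT against 5.13 in NC. DUSP5 was at 0.913 of NC under TNF and 0.912 under PBS, and DUSP4 at 0.796 and 0.917, the only 2 genes lower under both treatments. DUSP16 was at 1.23 and 1.13 of NC, the only gene higher under both.

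None of the 10 genes was at least 1.5-fold from NC under TNF or under PBS, against the 6.18% and 20.5% of loci given above. Limma called 0 of the 10 for siUXT, with 0 at an unadjusted p under 0.05, while 0.0422% of loci passed after Benjamini-Hochberg adjustment and the unadjusted p was under 0.05 for 432 loci. The largest difference in limma's fit was in DUSP4, at -0.21 with an SE of 0.19 (Benjamini-Hochberg adjusted p = 0.91). DUSP1, DUSP2, DUSP7, DUSP8 and DUSP14 were above NC under PBS and below it under TNF, a pattern found in 30.5% of all loci. These 5 genes lie in the 2 quartiles of shorter span, but so do DUSP4, DUSP5 and DUSP6, which did not have the pattern. The medians of these quartiles for siUXT minus NC were -0.08 and -0.0024 under TNF and 0.17 and 0.11 under PBS. The part of gene span was not tested. The PBS side of the pattern uses the siUXT PBS library that stood apart, whose part in it was not tested.

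The TNF response of the 10 genes was also set side by side over the transfections, with no test, since 1 library per condition leaves none. DUSP5 varied least, at 1.21 in siEZH1, 1.12 in siUXT and 1.12 in NC on the log2(FPKM + 1) scale. DUSP8 had 1.04, 1.08 and 1.46, DUSP1 0.41, 0.62 and 0.72, DUSP10 0.72, 0.72 and 0.57, and DUSP16 0.23, 0.58 and 0.47. For DUSP8 and DUSP1 the response was thus lower in both knockdowns than in NC, and for DUSP10 higher in both. The 10-gene median was 0.19 in siEZH1, 0.24 in siUXT and 0.33 in NC, against 0.01, -0.05 and -0.02 over all tested loci. These responses share no library between transfections, but each difference from NC rests on the same NC pair.

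Among other genes of MAP kinase signalling, the cascade kinases were mostly near 0. Among kinases of the cascade, 1 of 33 tested was called, MAP3K8 (TPL2), the kinase that links IKK to ERK activation. It was at 6.91, 4.87 and 6.93 FPKM under TNF against 0.773, 0.423 and 1.00 FPKM under PBS in siEZH1, siUXT and NC, a log2 difference of 2.06 ± 0.09 (SD, n = 3 transfections; limma, Benjamini-Hochberg adjusted p = 0.0054). The list's median of the mean TNF differences was 0.05, against 0.01 over all tested loci. The next 2 by size, MAP3K1 at 0.57 and the atypical kinase gene MAPK6 at 0.44, were highest in the siUXT pair, where they differed by 1.19 and 1.26, against 0.35 and 0.05 in siEZH1 and 0.18 and 0.02 in NC. The lowest were MAP3K5, MAP3K4 and MAPK13, at -0.24, -0.22 and -0.20, none called.

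ERK outputs and feedback genes other than these phosphatases had 1 of 20 tested loci called, MAFF, a small MAF transcription factor, at 1.82 ± 0.10 (SD, n = 3 transfections; limma, Benjamini-Hochberg adjusted p = 0.0065). The cytokine gene LIF at 1.03 and the EGF receptor ligand gene EREG at 0.84 did not pass. SPRY2 and SPRY1, Sprouty inhibitors of receptor tyrosine kinase signalling, had -0.65 and -0.45, and the ETS factor gene ETV1 -0.31. SPRY2 was at 2.01 FPKM in siUXT TNF against 8.09 in siUXT PBS, but at 4.16 against 4.36 in siEZH1 and 3.31 against 4.34 in NC. Of the 20 loci, 9 were higher under TNF in all 3 transfections and 5 were lower in all 3. For the 10 phosphatase genes these counts were 5 and 1, and for all 11845 tested loci 1075 and 1315. The list median was 0.17, the same to 2 decimals as that of the 10 phosphatase genes.

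Of transcription factors that MAP kinases phosphorylate, 1 of 9 was called, JUN, an AP-1 subunit and JNK substrate, with 7.49, 20.8 and 12.8 FPKM under TNF against 2.20, 4.27 and 2.39 FPKM under PBS in siEZH1, siUXT and NC, a log2 difference of 1.83 ± 0.36 (SD, n = 3 transfections; limma, Benjamini-Hochberg adjusted p = 0.018). JUND at 0.82 and CREB1 at 0.33 did not pass, ELK4, ELK3 and SRF lay between -0.08 and -0.03, and the list median was 0.11. Of the 10 tested loci among the other DUSP and STYX genes 0 were called. DUSP18 was the lowest at -0.54 ± 0.08 (SD, n = 3 transfections), with 2.79, 3.23 and 3.59 FPKM under TNF against 4.49, 5.55 and 5.34 FPKM under PBS in siEZH1, siUXT and NC (limma, Benjamini-Hochberg adjusted p = 0.65). DUSP9, the ERK-selective relative of DUSP6 and DUSP7, had 6.08, 5.46 and 8.55 FPKM under TNF against 5.31, 8.66 and 9.42 FPKM under PBS, which overlapped. STYXL1, a catalytically inactive relative, was at -0.19, DUSP11 and DUSP23 at 0.21 and 0.12, STYX, another inactive one, at 0.06, and the list median was 0.02. The other phosphatases that act on MAP kinases had 0 of 5 called and a median of 0.14. Of these PPP2CB, PPM1A and PPP2CA, at 0.31, 0.25 and 0.14, were each lowest in siUXT PBS, and PPM1B was at -0.06.

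**Figure D5:**
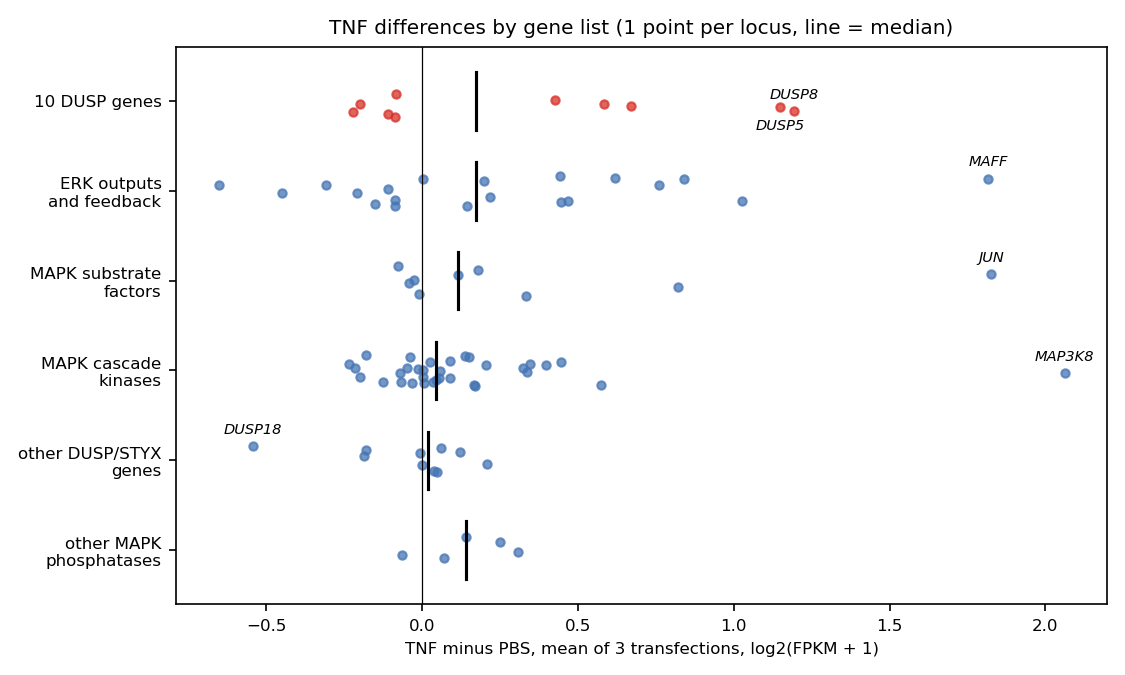
Mean TNF minus PBS difference of log2(FPKM + 1) over 3 transfections (horizontal axis) for each tested locus of 6 gene lists, with a bar at each list's median. DUSP5 and DUSP8 lead the 10 phosphatase genes at 1.15 and 1.19; MAP3K8, MAFF and JUN are the loci past 1.5 in the other lists.

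The median siEZH1 minus NC differences of these lists were set beside that of the 10 phosphatase genes, with no test between lists. The cascade kinases had medians of -0.00 under TNF and -0.02 under PBS, other DUSP and STYX genes 0.03 and -0.03, and other MAP kinase phosphatases 0.26 and 0.22. The ERK outputs and feedback genes had -0.33 and -0.21, and the substrate factors -0.19 and -0.11, the lists nearest to the phosphatase genes at -0.31 and -0.40. Limma called 0 loci of any of these lists for siEZH1 or siUXT over all 6 libraries.

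For the 3 genes with the greatest range over the 6 libraries, DUSP8, DUSP5 and DUSP10, the loci of most similar profile were found among 11011 protein-coding loci, by the root-mean-square difference of log2(FPKM + 1) after each profile was centred on its own mean. Nearest to DUSP5 were FOSL2, a FOS-family subunit of AP-1, at 0.11, SMAD3, a transducer of TGF-beta signals, at 0.12 and CCRN4L, at 0.13. Nearest to DUSP8 were FOSL2 again at 0.12, FUT2, a fucosyltransferase, at 0.13 and CCRN4L at 0.14. FOSL2 was at 18.5, 20.9 and 24.6 FPKM under TNF against 6.43, 9.69 and 8.83 FPKM under PBS in siEZH1, siUXT and NC. Nearest to DUSP10 were STC2, a secreted glycoprotein, at 0.09, TFE3, a transcription factor of lysosomal genes, at 0.12 and CYP24A1, the vitamin D 24-hydroxylase, at 0.13. These likenesses rest on 6 libraries and largely on the TNF contrast.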

How the data were processed

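RNA from 6 HCT116 samples, 1 for each transfection and treatment, was selected on oligo-dT beads per the labels' protocols. The authors deposited FPKM per gene symbol; the submitters' processing notes name FastQC, cutadapt, TopHat2, Bowtie, SICER and build hg19, while versions, the FPKM program, the annotation and strand handling are not stated there. FPKM has no fragment counts, so no count test or counting interval was possible, and depth is known only as a ratio between libraries.

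Symbols whose 6 values were all equal were treated as 1 locus, which left 17642 loci above 0, and the 11845 with a mean of at least 1 FPKM were tested. Values were log2(FPKM + 1). Limma 3.58.1 in R 4.3.3 fitted transfection plus treatment with an intensity trend, leaving 2 residual degrees of freedom, and p was adjusted by Benjamini-Hochberg with a threshold of 0.05. Transfections stand in for replicates of the TNF comparison, and treatments for replicates of each knockdown. The p-value sets a difference against the spread left by this additive fit, moderated by the spread over all loci. A TNF response that differs between transfections counts as spread in that fit. Single pairs have no test and use a 1.5-fold threshold. Alternatives were a pseudocount of 0.1, no filter, 2 other scalings, no trend, unmerged symbols, no transfection term, fewer transfections and each library left out. All 10 genes were named, and of each other list the called loci plus the 3 largest rises and 3 largest falls by mean TNF difference. The 10 genes, the lists and the naming rule were chosen with earlier results of these data known. Upstream sequences are from RefSeq. Python 3.11.15, numpy 2.4.6, pandas 2.3.3 and matplotlib 3.10.9 were used for the remainder.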

Additional observations from a re-analysis of the deposited data

Results flagged for a closer look

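Each value here sets the difference in one condition against the difference in another where the signs are opposite and both sizes are at least 0.1 on the log2(FPKM + 1) scale. With 1 library per condition none of these differences was tested.

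DUSP14 had the most. Its TNF minus PBS difference was -0.26 in siEZH1 and -0.54 in siUXT, against 0.19 in NC, so the responses differed by -0.45 and -0.73; the same -0.73 separates siUXT minus NC under TNF (-0.48) and under PBS (0.24). For DUSP2 the TNF minus PBS difference was -0.41 in siUXT against 0.12 in NC, a gap of -0.53. Its siUXT minus NC difference was -0.37 under TNF against 0.16 under PBS, which gives the same gap. For DUSP2 and for DUSP14 in siUXT, the equal gaps are the same quantity from the same libraries and not a second observation.

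For DUSP8, siUXT minus NC was -0.11 under TNF against 0.26 under PBS, a gap of -0.38, and for DUSP7 it was -0.16 against 0.21, a gap of -0.36. For DUSP16, siEZH1 minus NC was -0.14 under TNF against 0.10 under PBS, a gap of -0.24. Every siUXT gap here uses the siUXT PBS library, in which 20.5% of loci were at least 1.5-fold from NC PBS. The siUXT minus NC differences under TNF do not use it. The part of that library in the gaps was not tested.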

How the results depend on the processing

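Over all 10 genes, 116 of 130 TNF values kept their direction and side of the threshold, as did 112 of 130 for siEZH1 and 116 of 130 for siUXT. These counts do not measure robustness, since part of them was fixed in advance. No filter, no trend, unmerged symbols and, for TNF, no transfection term leave the estimates unchanged. A knockdown estimate also cannot move when a library of the other knockdown is left out. Most of the genes were not called in the main fit. The TNF count leaves out the fits with only the NC and siEZH1 or only the NC and siUXT libraries. In those fits DUSP5 or DUSP8 changed sides of the threshold. The number of the 10 genes called for TNF was 1 over all libraries, 0 with no filter and 1 to 2 with a library left out. For siEZH1 it was 0, against 5 with only the NC and siEZH1 libraries, when 15.9% of loci were called lower, and 0 to 5 with a library left out; for siUXT it was 0 throughout. With a library left out, log2 differences that changed sign ran as follows. For TNF they ran from -0.19 to 0.077 in DUSP2, -0.17 to 0.00097 in DUSP4 and -0.24 to 0.045 in DUSP7. For siEZH1 they ran from -0.058 to 0.16 in DUSP6 and -0.17 to 0.13 in DUSP16. For siUXT they ran from -0.14 to 0.068 in DUSP1, -0.35 to 0.13 in DUSP2, -0.20 to 0.020 in DUSP6, -0.21 to 0.26 in DUSP7, -0.12 to 0.27 in DUSP8, -0.14 to 0.0099 in DUSP10 and -0.41 to 0.17 in DUSP14. DUSP7 under siUXT also changed sign with size factors (-0.0091) and with equal FPKM sums (-0.026). Over all loci, limma called 48 higher and 1 lower under TNF, against 23 and 0 with no filter and 340 and 54 without siUXT PBS; for siEZH1 0 higher and 2 lower, against 1476 and 1798 without siUXT PBS; and for siUXT 3 and 2, against 0 and 0 with a pseudocount of 0.1 and 1429 and 2184 without siUXT TNF. Fits that leave out a library have 1 residual degree of freedom, and without an NC or siEZH1 library limma's prior degrees of freedom were infinite, so that every locus was tested against 1 fitted trend of spread. The causes of these changes were not tested further. The labels give no replicate numbers; the fit pairs TNF and PBS libraries by transfection, and without that term 1 of the 10 genes was called for TNF, DUSP5. Without fragment counts, what depth limits could not be measured per gene.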
